A study of Mus musculus with 2 samples.

Results

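The 10 genes examined here, Hlf, Mecom, Mllt3, Meis1, Hoxa9, Hoxa10, Hoxb4, Erg, Hhex and Msi2, are regulators known for their part in hematopoietic stem cell (HSC) identity, and they were taken by name from the 32285 genes counted in each library. Their transcripts were followed through single fetal liver LSK cells (lineage-negative, SCA1-positive, cKIT-positive stem and progenitor cells) of CD1 mice, an outbred stock, at E14.5. The WT library came from a pool of 2 embryos with intact IκBα (gene Nfkbia, the inhibitor that holds NF-κB in the cytoplasm), and the KO library from a pool of 3 embryos lacking it. Both were lineage-depleted and sorted alike, and besides pool size, the IκBα genotype is the difference given between them. Embryos within a pool cannot be told apart, and with 1 library per genotype no test was made: every interval is a 95% interval of counting error and says nothing of the spread between embryos.

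HSCs renew themselves for life and give rise to all blood lineages, and a small set of nuclear regulators keeps this state while being switched off as cells commit. Of the 10 genes, Hoxa9, Hoxa10, Hoxb4, Meis1 and Hhex encode homeodomain proteins, Erg an ETS factor, Hlf a PAR-type bZIP factor and Mecom the zinc finger proteins of the MDS1 and EVI1 locus. Mllt3 encodes a reader of acetylated and crotonylated histones that works with the super elongation complex, and Msi2 an RNA-binding protein that controls translation, so these last genes are stem cell regulators but not DNA-binding transcription factors. In the fetal liver HSCs divide and expand, and hematopoiesis there is dominated by the erythroid lineage.

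After filtering, 3458 WT cells and 4417 KO cells remained, with a median of 28065 and 19560 UMIs per cell (a UMI, or unique molecular identifier, marks 1 captured RNA molecule), so that the WT cells were 1.43 times deeper. Cells carrying Xist but no Y-linked UMI (called female below) made up 95.9% of the WT and 69.4% of the KO cells, and doublet calls 3.90% and 5.80%. Nfkbia had 1478 UMIs in WT and 7 in KO cells, 13.6 against 0.0707 CPM (the UMIs of a gene scaled to all UMIs of the cells summed). The 2 libraries shared 7 barcodes. The sample titles speak of LT-HSCs, but the cells fell into 22 clusters that reached far beyond HSCs: the LSK marker Ly6a (SCA1) was at 38.2 CPM for WT and 50.6 CPM for KO HSC-like cells and at 0 in late erythroid-like cells of both libraries.

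Cells were clustered, and clusters were named as classes from marker genes. The 10 genes were not among the markers and were left out of the genes used for clustering, although Mecom and Hlf stood among the leading genes of the HSC-like cluster. HSC-like cells, a cluster with 6 HSC markers among its 50 leading genes, numbered 392 in each library, multipotent progenitor-like (MPP-like) cells 478 in WT and 454 in KO, lymphoid-primed-like cells 153 and 188, monocyte/dendritic-like cells 193 and 173, early erythroid-like cells 406 and 570 and late erythroid-like cells 592 and 915. Because levels are UMIs of tagged 3′ ends, they do not grow with transcript length, but genes still differ in how well they are captured, so each gene is compared with itself across classes. Where a pair of values is given, WT comes first.

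Expression in HSC-like cells was examined first, beginning with the genes that bind DNA outside the Hox family. Hlf (ENSMUSG00000003949, GRCm38 chromosome 11, 90336536 to 90390895, minus strand) gave 1225 UMIs in HSC-like cells of the WT and 663 in those of the KO library, or 215 CPM (203 to 227) and 171 CPM (159 to 185). Mecom (ENSMUSG00000027684, chromosome 3, 29951296 to 30548008, minus strand) had 530 and 377 UMIs, 92.9 CPM (85.2 to 101) for WT and 97.4 CPM (87.8 to 108) for KO. Thus the WT library was higher for Hlf with intervals that did not overlap, whereas those of Mecom did. Erg (ENSMUSG00000040732, chromosome 16, 95359169 to 95586593, minus strand), which drives stem cell as well as endothelial genes, was at 51.0 CPM for WT and 47.5 CPM for KO. Hhex (ENSMUSG00000024986, chromosome 19, 37434810 to 37440731, plus strand), needed for early blood, liver and lymphoid development, was at 157 CPM and 152 CPM. Neither gene differed between the libraries by more than counting error.

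In the Hox and TALE group, Meis1 (ENSMUSG00000020160, chromosome 11, 18879817 to 19018985, minus strand), the homeodomain partner of HOXA9, reached 80.8 CPM for WT and 82.4 CPM for KO HSC-like cells. Hoxa9 (ENSMUSG00000038227, chromosome 6, 52223100 to 52231089, minus strand) reached 136 CPM (126 to 146) and 118 CPM (107 to 129), with 775 and 456 UMIs. Its neighbor Hoxa10 (ENSMUSG00000000938, chromosome 6, 52231197 to 52240854, minus strand) had 157 and 81 UMIs, 27.5 CPM (23.4 to 32.2) and 20.9 CPM (16.6 to 26.0). These Hox genes were lower in the KO library, with overlapping intervals in both cases. Hoxb4 (ENSMUSG00000038692, chromosome 11, 96318267 to 96321638, plus strand), best known for expanding HSCs when forced on, was the sparsest of the 10 genes with 75 and 44 UMIs, 13.1 CPM (10.3 to 16.5) for WT and 11.4 CPM (8.26 to 15.3) for KO. Of the regulators that do not bind DNA, Mllt3 (ENSMUSG00000028496, chromosome 4, 87769925 to 88033364, minus strand) was at 79.4 CPM (72.3 to 87.1) and 81.9 CPM (73.1 to 91.4), and Msi2 (ENSMUSG00000069769, chromosome 11, 88339382 to 88718513, minus strand) at 157 CPM (147 to 167) and 139 CPM (128 to 151).

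**Figure D1:**
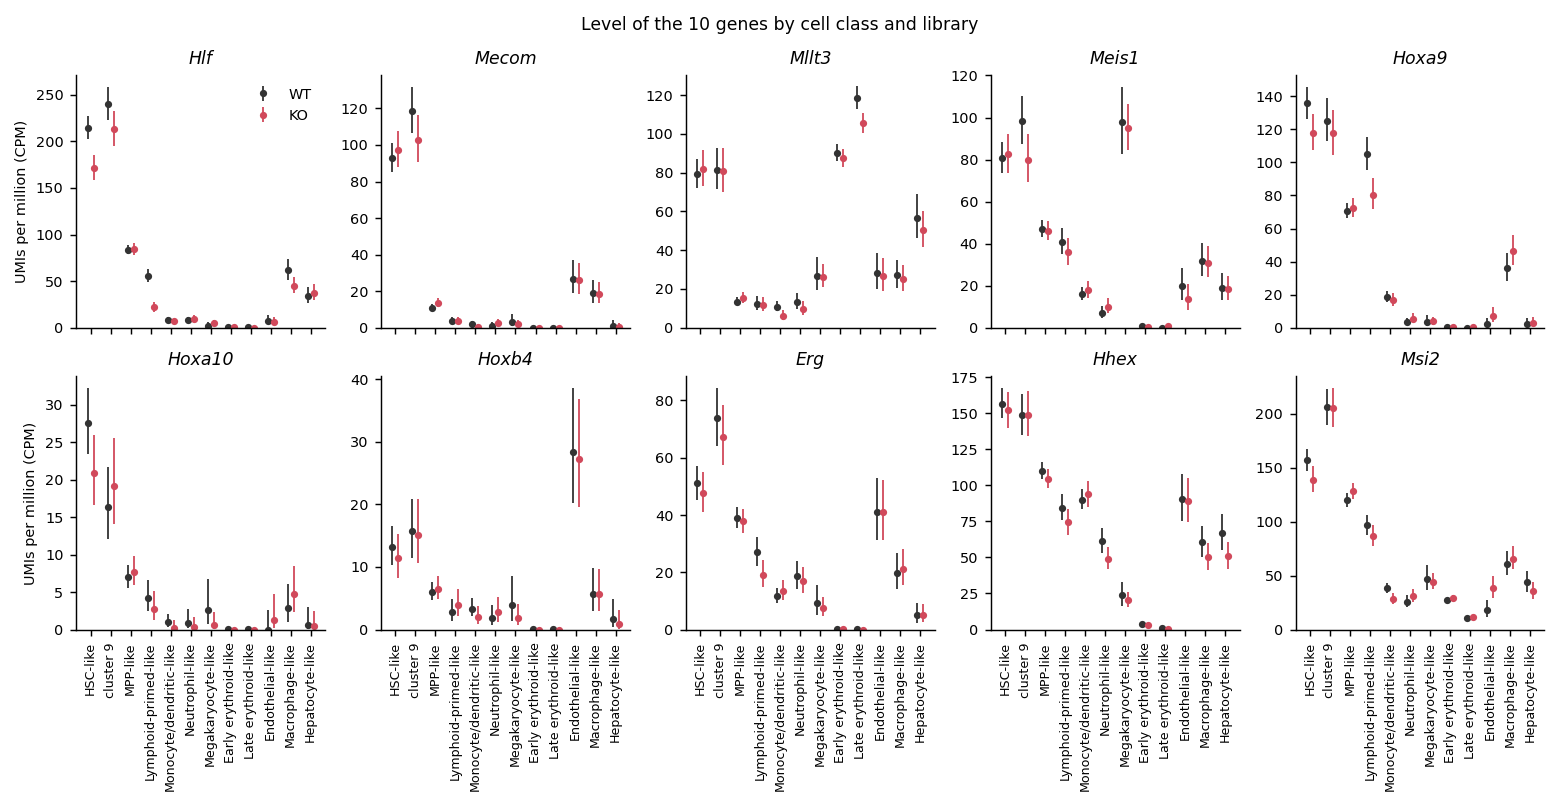
Level of each of the 10 genes per cell class in the WT and KO libraries (CPM of the UMIs summed over a class, with 95% counting intervals). In HSC-like cells Hlf stands at 215 CPM for WT and 171 CPM for KO and Hoxb4 at 13.1 and 11.4 CPM, whereas Mllt3 is high again in late erythroid-like cells at 119 and 106 CPM.

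The share of HSC-like cells with at least 1 UMI depends on depth. These cells held a median of 13636 UMIs in WT and 9150.5 in KO. Without correction, Hlf was seen in 80.9% of WT and 73.7% of KO HSC-like cells, Hhex in 81.4% and 72.4%, and Hoxb4 in 16.8% and 10.2%, and for each of the 10 genes the share was lower in KO. After thinning of every cell to 5000 UMIs, which left 379 WT and 366 KO cells and removed 13 and 26 shallower ones, Hlf was seen in 62.3% (57.2 to 67.2) and 51.1% (45.8 to 56.3) of cells. For Mecom the thinned shares were 38.0% in each library, for Meis1 31.7% and 33.1%, for Mllt3 31.1% and 30.9%, for Erg 22.2% and 22.4%, and for Hhex 48.8% and 53.0%. Hlf was the single gene of the 10 whose thinned intervals did not overlap. Late erythroid-like cells, which should lack most of these genes and had medians of 21637.5 and 15786 UMIs, served as background: there Hlf was seen in 1.01% of WT and 0.437% of KO cells without thinning and in 0.171% and 0.221% after it (6 and 11 cells left out), and Mecom in 0 of 592 and 0 of 915 cells. The low shares of Hoxa10 (12.9% and 9.56% after thinning) and Hoxb4 (7.39% and 7.65%) in HSC-like cells were still far above the late erythroid-like background, where Hoxa10 and Hoxb4 had at most 1 UMI per library. With cells gated singly by their marker scores in place of clusters, this background was higher (without thinning). Mecom was then seen in 2.19% of WT and 3.32% of KO late erythroid-like cells, Hlf in 4.01% and 5.26%, and Hoxa10 in 2.01% and 1.03%.

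The genes were also counted together in single cells. At 5000 UMIs, an HSC-like cell had a UMI of a median of 4 of the 10 genes in WT and 3 in KO, and at most 8 in either library. Cells with at least 5 of the genes made up 30.6% (26.0 to 35.5) of WT and 25.1% (20.8 to 29.9) of KO HSC-like cells, with overlapping intervals, and cells with none 3.17% and 3.55%. In MPP-like cells the median was 2 in both libraries and 5.71% and 5.36% held at least 5 genes. Lymphoid-primed-like cells had a median of 1 in both libraries, and the share with none of the 10 genes was 17.0% (11.4 to 23.9) in WT and 27.7% (21.4 to 34.6) in KO. In late erythroid-like cells the median was 0, and 55.6% and 58.4% of cells had none.

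**Figure D2:**
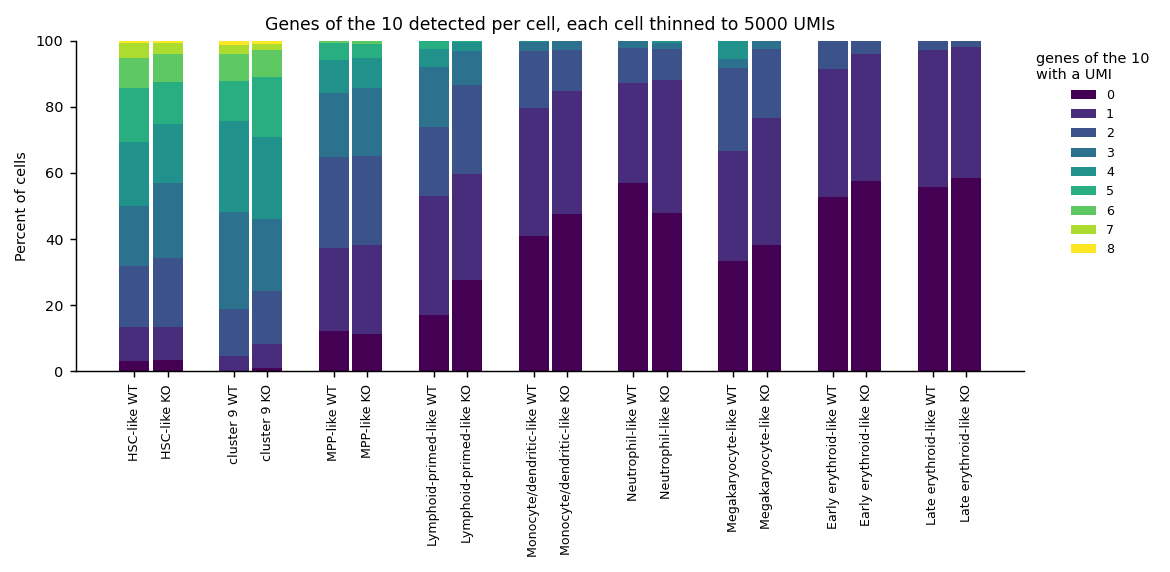
Number of the 10 genes with a UMI per cell, as a percent of the cells of a class, with every cell thinned to 5000 UMIs. HSC-like cells center on 3 to 4 genes, MPP-like cells on 2 and late erythroid-like cells on 0 in both libraries.

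The order in which the genes declined from HSC-like cells outward was then compared, counting a gene as lost where it was under 50% of its HSC-like level in both libraries. Background shares refer to the 7356 genes with at least 100 UMIs in HSC-like cells of both libraries together. In MPP-like cells 4 of the 10 genes were lost by this measure (Hlf, Mecom, Mllt3 and Hoxa10), against 3.36% of all genes. Mecom was at 10.8 CPM for WT and 13.5 CPM for KO MPP-like cells, 11.6% and 13.9% of its HSC-like level, and Mllt3 at 13.5 and 15.5 CPM, 17.0% and 18.9%. They were the only genes of the 10 under 25%, a mark passed by 0.571% of all genes. Hlf declined less, to 83.7 CPM (78.7 to 89.0) and 84.1 CPM (78.1 to 90.5), equal to 39.0% and 49.1% of its HSC-like level. Hoxb4 was at 45.8% in WT but 57.4% in KO. The remaining genes stayed above 50% in both libraries: Erg was at 76.6% and 79.7%, Msi2 at 76.6% and 92.1%, Hhex at 70.2% and 68.8%, Meis1 at 58.3% and 56.0%, and Hoxa9 at 52.1% and 61.7%. With a stricter minimum of genes per cell (1632 in WT and 1305 in KO) the count was 7 of 10. It was also 7 of 10 when doublet calls were left out. The cells named MPP-like and HSC-like changed as well in these settings, and the cause of the difference was not tested. Mllt3 was again far under its HSC-like level there (log2 of MPP-like over HSC-like between -3.36 and -2.81). When cells were instead gated singly by their marker scores, 3 of 10 genes were under 50% (Mecom, Mllt3 and Hoxa10). By this gate Hlf was at 97.4 CPM for WT and 99.4 CPM for KO MPP-like cells against 173 and 155 CPM in HSC-like cells, and Mllt3 at 18.6 and 23.5 CPM against 67.6 and 72.6 CPM, so that Mllt3 was no longer under 25%.

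To give the sequence context of the genes with the earliest decline, the 250 bases before the RefSeq transcription starts of Mecom and Mllt3 are shown (GRCm38.p6, in the direction of the gene, lower case, motif matches in capitals), and those of Hhex because its window was the sole one among the 17 starts of the 10 genes with an NF-κB consensus match. Motifs searched on both strands were the CCAAT box (CCAAT), a Meis site (TGACAG), an Ets site (CCGGAAGT), a GATA site (AGATAA), a PAR bZIP site (TTACGTAA) and the NF-κB consensus. Mecom and Mllt3 each have alternative starts, and 3′ counts cannot tell which one was used.
Mecom, chr3:30509760-30510009, minus strand, no match: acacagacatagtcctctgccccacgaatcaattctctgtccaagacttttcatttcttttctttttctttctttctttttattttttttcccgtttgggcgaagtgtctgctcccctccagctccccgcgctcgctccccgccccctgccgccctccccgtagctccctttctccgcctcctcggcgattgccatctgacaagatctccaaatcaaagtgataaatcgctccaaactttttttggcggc
Mecom, chr3:30013205-30013454, minus strand, CCAAT box and Meis site: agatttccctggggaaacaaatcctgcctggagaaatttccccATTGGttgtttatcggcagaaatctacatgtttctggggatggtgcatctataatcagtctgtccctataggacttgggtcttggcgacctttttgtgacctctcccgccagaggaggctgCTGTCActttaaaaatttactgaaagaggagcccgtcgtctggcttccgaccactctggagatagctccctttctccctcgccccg
Mllt3, chr4:88033408-88033657, minus strand, CCAAT box: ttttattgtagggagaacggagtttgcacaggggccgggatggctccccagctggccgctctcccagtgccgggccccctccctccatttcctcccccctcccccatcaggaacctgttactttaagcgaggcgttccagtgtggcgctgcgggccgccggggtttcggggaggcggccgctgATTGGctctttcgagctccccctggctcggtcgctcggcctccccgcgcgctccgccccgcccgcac
Mllt3, chr4:87806324-87806573, minus strand, CCAAT boxes and Meis site: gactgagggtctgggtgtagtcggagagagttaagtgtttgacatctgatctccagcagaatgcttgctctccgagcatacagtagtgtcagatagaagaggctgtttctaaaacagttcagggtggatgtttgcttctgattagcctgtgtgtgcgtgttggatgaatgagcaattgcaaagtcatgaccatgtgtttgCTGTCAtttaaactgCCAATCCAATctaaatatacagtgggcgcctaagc
Hhex, chr19:37434591-37434840, plus strand, NF-κB consensus and CCAAT box: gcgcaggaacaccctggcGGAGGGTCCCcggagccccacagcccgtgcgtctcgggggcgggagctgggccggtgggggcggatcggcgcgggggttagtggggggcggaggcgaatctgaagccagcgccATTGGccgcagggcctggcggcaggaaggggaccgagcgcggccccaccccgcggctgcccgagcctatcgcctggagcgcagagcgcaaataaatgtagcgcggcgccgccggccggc

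The windows of Mllt3 differed in base composition: the outer start lay in 69.2% GC with 23 CpG and the inner start in 45.2% GC with 4 CpG, while the Hhex window had 76.0% GC and 32 CpG. Of all 32851 RefSeq start windows, 7.25% held the NF-κB consensus, 15.9% the Meis site, 2.88% the Ets site, 9.99% the GATA site, 0.113% the PAR bZIP site and 33.8% the CCAAT box. Among the 17 windows of the 10 genes, 1 held the NF-κB consensus (Hhex), 3 the Meis site (Erg, Mecom and Mllt3), 1 the Ets site (Meis1), 1 the GATA site (Erg), 0 the PAR bZIP site and 11 the CCAAT box. These 11 lay in Erg, Hhex, Hoxa10, Mecom, Meis1, Mllt3 and Msi2. The windows of Msi2 overlap each other, so the 17 windows are not independent. A match describes the letters alone, and no binding was measured here.

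Along the lymphoid branch, 5 of the 10 genes were under 50% of the HSC-like level in lymphoid-primed-like cells (5.33% of all genes). Mecom was at 3.50 and 3.60 CPM, under 4% of its HSC-like level, Mllt3 at 12.4 and 11.9 CPM, and Hoxa10 at 4.20 and 2.77 CPM. Hoxa9 was the best retained gene of this branch with 105 CPM (95.5 to 115) for WT and 80.5 CPM (71.5 to 90.3) for KO, 77.3% and 68.3% of its HSC-like level. Msi2 followed with 61.8% and 62.7%, then Hhex with 54.0% and 49.0%. The count was 8 when doublet calls were left out and 9 with the stricter minimum of genes per cell, but 4 by the single-cell gate.

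In the myeloid branch, 9 of 10 genes were under 50% in monocyte/dendritic-like cells (7.82% of all genes) and 10 of 10 in neutrophil-like cells (10.3%). Hhex was the exception in the former at 90.1 CPM (83.2 to 97.3) for WT and 93.7 CPM (84.9 to 103) for KO, 57.5% and 61.7% of its HSC-like level. Hhex was seen in 89.6% and 84.4% of these cells. In neutrophil-like cells it was at 61.1 and 49.0 CPM, while Hoxa9 was at 3.36 and 5.52 CPM and Mecom at 1.22 and 2.45 CPM. Thus Hoxa9 and Mecom were nearly gone from neutrophil-like cells, where Hhex, at 39.0% and 32.3% of its HSC-like level, and Erg, at 36.5% and 35.5%, were retained best.

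Megakaryocyte-like cells numbered 37 in WT and 83 in KO and differed from the other branches in Meis1. There Meis1 was at 97.7 CPM (82.6 to 115) and 94.8 CPM (84.4 to 106), 121% and 115% of its HSC-like level, and was seen in 91.9% and 94.0% of cells. The other 9 genes were all under 50% (10.5% of all genes), with Hlf at 1.97 and 5.09 CPM, Erg at 9.18 and 7.64 CPM and Msi2 highest among them at 47.2 and 44.2 CPM. The retention of Meis1 differed between settings. At the lower clustering resolution the class named megakaryocyte-like had a log2 difference from HSC-like cells of -0.86 in WT and -0.49 in KO. In the main setting it was 0.27 and 0.20. With the stricter minimum of genes per cell the KO value was -0.05.

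The erythroid series was the deepest, and its 9 clusters were ordered, after they had been seen, by the falling sum of 7 megakaryocyte-erythroid markers, from an unnamed early cluster with Car1, Muc13 and Gata2 (cluster 13) to haemoglobin-rich cells. In cluster 13 all 10 genes were under 50% (12.8% of all genes), but not equally: Hlf was already at 2.10 CPM for WT and 3.95 CPM for KO and Mecom at 0.466 and 0.565 CPM, whereas Hhex was still at 61.7 and 56.2 CPM and Meis1 at 30.5 and 28.2 CPM. Meis1 was then at 3.19 and 2.25 CPM in the next cluster, where Hhex was at 39.8 and 42.7 CPM. At a mark of 25% of the HSC-like level, Hhex thus outlasted Meis1, and Meis1 outlasted Hlf, Mecom and the Hox genes. Below that mark the order did not hold for every Hox gene. In the cluster that followed (cluster 12), Hoxa9 was at 1.97 and 2.45 CPM (13 and 11 UMIs). Meis1 was at 0.455 and 0.668 CPM there (3 and 3 UMIs). In early erythroid-like cells 9 of 10 genes were under 50% (22.1% of all genes) and in late erythroid-like cells again 9 of 10 (43.2%). By then Hlf was at 0.437 CPM for WT and 0.260 CPM for KO, Hhex at 0.947 and 0.714 CPM and Erg at 0.0728 CPM and 0, and Mecom had no UMI in either library, which allows at most 0.269 CPM for WT and 0.239 CPM for KO. The near absence depended on the cluster-based class. By the single-cell gate, late erythroid-like cells held 17 WT and 51 KO UMIs of Mecom (1.26 and 3.21 CPM), and Hlf was at 7.34 and 7.36 CPM.

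Mllt3 ran the other way in this series. From 13.5 CPM for WT and 15.5 CPM for KO MPP-like cells it was at 20.5 and 16.1 CPM in cluster 13, at 59.7 and 63.4 CPM in cluster 4, and reached, in late cluster 10, 141 CPM (128 to 155) for WT and 113 CPM (102 to 125) for KO. In cluster 5, the last of the series, it was lower than in cluster 10, at 96.1 CPM for WT and 82.1 CPM for KO. Its HSC-like level was 79.4 and 81.9 CPM. In late erythroid-like cells as a whole it was at 119 CPM (113 to 125) for WT and 106 CPM (100 to 111) for KO, 149% and 129% of the HSC-like level, and was seen in 83.1% and 75.2% of cells, or in 41.6% and 38.3% after thinning. Mllt3 was the only gene of the 10 above its HSC-like level there in both libraries. Late erythroid-like sums are dominated by haemoglobin transcripts, with Hbb-bs alone at 109310 CPM for WT and 129169 CPM for KO, which lowers the CPM of every other gene. With haemoglobin, mitochondrial and ribosomal protein genes left out of the total, the log2 difference of Mllt3 from HSC-like cells was 0.91 in WT and 0.74 in KO in place of 0.58 and 0.37. With a stricter minimum of genes per cell it was 0.14 and -0.06, and the excess over HSC-like cells was then absent in KO, though not the excess over MPP-like cells. Msi2 also stayed measurable, at 10.8 and 11.2 CPM and in 19.8% and 16.8% of late erythroid-like cells.

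**Figure D3:**
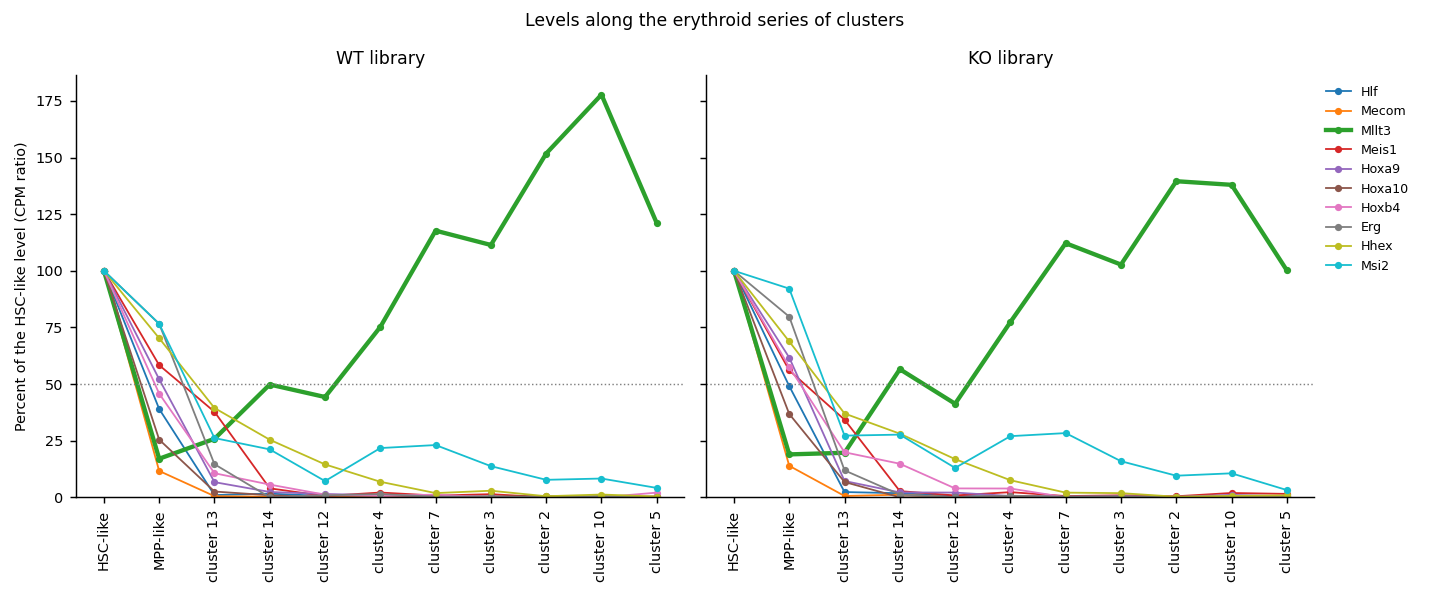
Level of each of the 10 genes as a percent of its HSC-like level, from HSC-like and MPP-like cells through the 9 ordered erythroid clusters in the WT and KO libraries. Mllt3 dips to 17.0% and 18.9% in MPP-like cells and is above its HSC-like level from cluster 7 through late cluster 10. In the last cluster (cluster 5) it is lower than in cluster 10, at 96.1 CPM for WT and 82.1 CPM for KO. The HSC-like values are 79.4 and 81.9 CPM. Hhex and Meis1 decline stepwise, and Hlf and Mecom are near 0 from cluster 13 on.

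The set was also read in endothelial-like, hepatocyte-like and macrophage-like cells. In endothelial-like cells (68 in WT and 89 in KO, of which 18.5% were doublet calls), 7 of the 10 genes were under 50% of the HSC-like level (7.86% of all genes), but Hoxb4 was at 28.3 CPM (20.2 to 38.5) for WT and 27.3 CPM (19.6 to 36.9) for KO, 215% and 240% of the HSC-like level. It was the 1 gene of the 10 over 2 times its HSC-like level there (5.13% of all genes). Its intervals did not overlap those of HSC-like cells in either library. Erg, an endothelial as well as a blood factor, was at 41.0 and 40.9 CPM and Hhex at 90.6 and 88.9 CPM. Of the hepatocyte-like cells (33 and 69), 12.1% and 23.2% were doublet calls, and the part of other cells in their values was not tested. In these cells 9 of the 10 genes were under 50% (17.4% of all genes), all but Mllt3 at 56.9 and 50.3 CPM. Hlf, a regulator also known from adult liver, was among those under 50%, at 34.2 CPM (26.2 to 43.9) and 37.7 CPM (30.2 to 46.5). Mecom was at 1.10 and 0.434 CPM. In macrophage-like cells 10 of 10 genes were under 50% (4.87%), and Hlf was at 61.9 CPM for WT and 45.0 CPM for KO. These macrophage-like cells also held Cd34, a progenitor marker, at 143 and 78.3 CPM and all 10 markers of the HSC list at a sum of 549 and 460 CPM, and the part of other cells in this signal was not tested.

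A further cluster of 149 WT and 185 KO cells (cluster 9) had fewer than 3 HSC markers among its leading genes and stayed unnamed, yet it held all 10 genes. None of the 10 was under 50% of the HSC-like level there, against 0.272% of all genes. Hoxa10 was at 16.4 CPM for WT and 19.2 CPM for KO, against 27.5 and 20.9 CPM in HSC-like cells. Hlf was at 240 CPM (223 to 259) for WT and 213 CPM (195 to 232) for KO, Mecom at 119 and 103 CPM, and Msi2 at 206 CPM (190 to 223) and 205 CPM (188 to 224). Msi2 and Erg (73.7 and 67.3 CPM) were higher than in HSC-like cells in both libraries, at 132% and 148% and at 145% and 142% of the HSC-like level. These cells differed from HSC-like cells in proliferation: Mki67, expressed by dividing cells, was at 419 and 353 CPM against 96.6 and 103 CPM in HSC-like cells, while Procr, the gene of the HSC surface marker EPCR, was at 23.9 and 19.6 CPM against 44.5 and 44.2 CPM.

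KO and WT were then compared within each class, for genes with at least 100 UMIs in both libraries together and a size mark of 0.5 in log2. In HSC-like cells 0 of the 10 genes passed it, against 3.55% of 7356 genes. The KO library was higher for 3 and lower for 7 genes, with a median log2 KO/WT of -0.14 over the 10 genes and 0.004 over all genes. The value was -0.33 (-0.46 to -0.19) for Hlf, -0.21 (-0.38 to -0.04) for Hoxa9, -0.17 (-0.33 to -0.02) for Msi2 and -0.40 (-0.80 to 0.00) for Hoxa10. It was 0.07 (-0.13 to 0.26) for Mecom, 0.04 (-0.17 to 0.25) for Mllt3 and 0.03 for Meis1. Hlf was lower in KO under all 11 alternative settings, at -0.42 to -0.16, and the last value came from cells gated singly by their marker scores, where Hlf was at 173 CPM for WT and 155 CPM for KO. That gate placed 957 cells in the HSC-like class and shared 538 of them with the 784 HSC-like cells of the cluster, and 74 of the 957 scored within 0.1 of another list.

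In MPP-like cells 7 genes were higher and 3 lower in KO, 0 passed the mark (3.04% of all genes), and the median log2 KO/WT was 0.07. Mecom had the highest value, 0.33 (-0.05 to 0.70), and its interval held 0. Hlf, lower in KO HSC-like cells, was at 83.7 and 84.1 CPM here. In cluster 9, 7 of 8 genes with enough UMIs were lower in KO and 0 passed the mark (3.91%), with Meis1 lowest at -0.30 (-0.57 to -0.03).

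Lymphoid-primed-like cells held the largest KO/WT difference among genes of the set with enough UMIs. Hlf had 240 UMIs in WT and 79 in KO, 56.0 CPM (49.1 to 63.5) against 21.8 CPM (17.3 to 27.2), a log2 KO/WT of -1.36 (-1.74 to -0.99). It was seen in 39.9% of WT and 17.6% of KO cells, and in 20.3% (14.2 to 27.5) and 7.45% (4.13 to 12.2) after thinning, which left out 0 cells of either library, so both fewer positive cells and a lower summed level were measured. Erg was at 27.1 and 19.1 CPM with a log2 KO/WT of -0.50 (-0.96 to -0.06), and Hoxa9 at -0.38 (-0.60 to -0.17). All 6 genes with enough UMIs were lower in KO, 2 passed the mark (3.88% of all genes), and the median was -0.28. The classes were not alike in other markers. The 10 HSC markers, all detected in both libraries, summed to 607 CPM for WT and 593 CPM for KO, and the 10 lymphoid markers, of which 1 was at 0 in each library, to 345 and 414 CPM. The 12 late erythroid markers, 1 at 0 in each library, summed to 726 and 2774 CPM, and Gata2 was at 13.8 and 4.15 CPM. The part of these differences in the Hlf value was not tested. Hlf remained lower in KO in all 9 alternatives, at -1.59 to -0.77: it was -0.97 without doublet calls, -1.33 in female cells alone and -0.77 by the single-cell gate, where Hlf was at 94.2 CPM for WT and 55.4 CPM for KO. For Hoxa9 the gate gave -0.15. The 50 leading genes of the cluster held 6 markers of the lymphoid-primed list and 4 of the lymphoid list, which share genes. The gate formed a separate lymphoid-like class of 44 WT and 72 KO cells. There Hlf ran the other way, at 23.0 CPM (15.3 to 33.3) and 36.4 CPM (26.7 to 48.4). These values rest on 28 and 47 UMIs, and their intervals overlapped. In the lymphoid-primed-like cluster Erg lay just past the mark. It was lower in KO in all 9 alternatives, at -0.95 to -0.22, but not past the mark in 4 of them: -0.22 without doublet calls, -0.36 by the gate, -0.36 with all variable genes used for clustering and -0.44 with the stricter minimum of genes per cell.

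**Figure D4:**
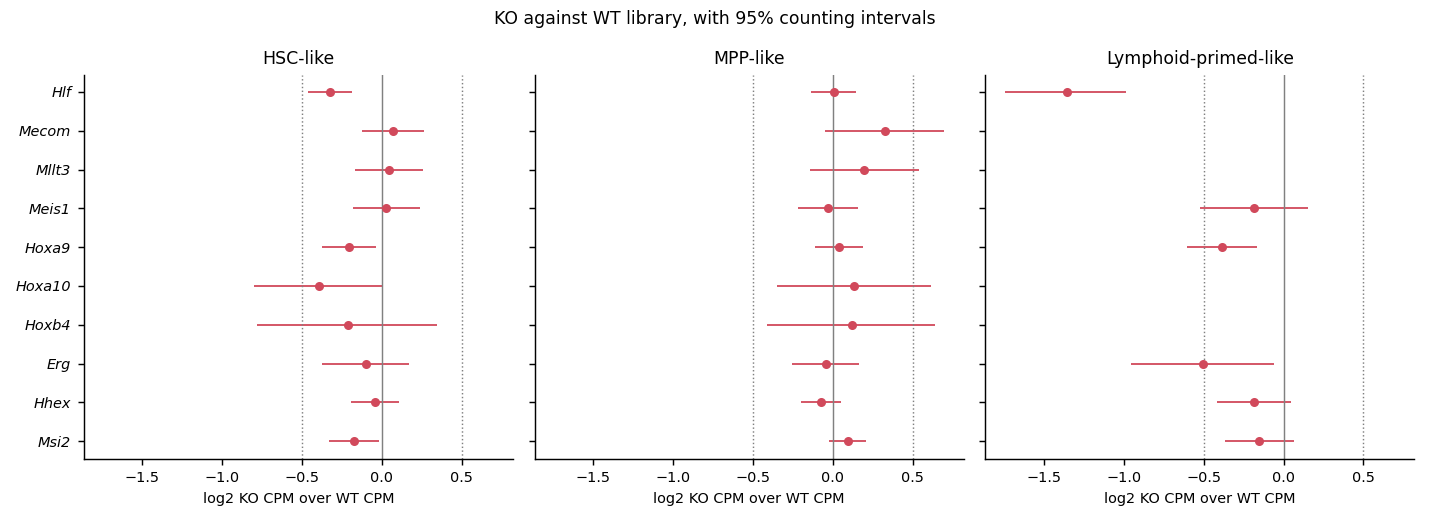
Log2 KO over WT level of the 10 genes in HSC-like, MPP-like and lymphoid-primed-like cells with 95% counting intervals, for genes with at least 100 UMIs in both libraries together (dotted lines mark 0.5 either way). Hlf lies at -0.33, near 0 and at -1.36 in the respective classes, and no gene passes 0.5 in HSC-like or MPP-like cells.

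The remaining classes were compared in the same way. In monocyte/dendritic-like cells 1 of 6 genes passed the mark (3.39% of all genes): Mllt3 had 78 and 28 UMIs, with a log2 KO/WT of -0.79 (-1.47 to -0.15). This value was -0.06 by the single-cell gate, -1.70 in female cells and -2.16 after thinning. Msi2 in the same class was at 38.6 CPM for WT and 28.5 CPM for KO, -0.44 (-0.75 to -0.13). In late erythroid-like cells Mllt3 was at -0.17 (-0.27 to -0.07) and 0 genes passed (2.78%), and in early erythroid-like cells 0 genes passed (2.48%). In cluster 12, an unnamed erythroid-side cluster, Msi2 was higher in KO, 11.2 CPM (8.80 to 14.1) against 18.0 CPM (14.3 to 22.4), 0.68 (0.21 to 1.16), from 74 and 81 UMIs (5.21% of all genes passed). In cluster 11, an unnamed cluster of 118 WT and 182 KO cells of which 82.2% and 83.0% were doublet calls, 1 of 8 genes passed the mark (2.82% of all genes): Mecom had 63 and 121 UMIs and was higher in KO, 14.8 CPM against 10.0 CPM, 0.56 (0.11 to 1.02). The part of doublets in this value was not tested.

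Partner genes were read in HSC-like cells from lists written with earlier results known. Of the 21 Hox genes of clusters A and B, 4 had no UMI in any kept cell (Hoxa11, Hoxa13, Hoxb1 and Hoxb13) and 6 had at least 100 UMIs in HSC-like cells, with a median log2 KO/WT of -0.21. These 6 include Hoxa9, Hoxa10 and Hoxb4, which belong to the 10 genes themselves. The median and counts of this list thus partly repeat their values. Hoxa7 was at 74.5 CPM for WT and 80.6 CPM for KO, and Hoxa5 at 20.7 and 18.9 CPM. The 1 gene past the mark (3.55% of all genes) was Hoxa3, named after its values were seen, with 78 and 30 UMIs and a log2 KO/WT of -0.82 (-1.48 to -0.19). Of the 6 genes, 3 were under 50% in MPP-like cells (3.36% of all genes) and all 6 in late erythroid-like cells (43.2%).

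Of 17 cofactors and paralogs 10 had enough UMIs, 0 passed the mark (3.55% of all genes) and the median log2 KO/WT was -0.15. The PBX proteins, which bind DNA with HOX and MEIS proteins, included Pbx2 (53.5 CPM for WT and 53.7 CPM for KO), with Pbx4 at 14.2 and 10.1 CPM. Pbx3 was at 11.6 and 10.9 CPM in HSC-like cells and higher, at 34.1 and 40.2 CPM, in late erythroid-like cells. Of the elongation partners, Dot1l, the H3K79 methyltransferase, was at 20.3 and 18.6 CPM in HSC-like and 22.5 and 24.3 CPM in late erythroid-like cells, while Aff4 (23.0 and 19.9 CPM) and Mllt1, the paralog of Mllt3 (11.6 and 10.3 CPM), were at 3.49 and 4.41 CPM and at 4.81 and 4.74 CPM there. Fli1, the closest ETS relative of Erg, was at 61.4 and 55.0 CPM, and the PAR factor Dbp at 13.8 and 11.9 CPM. None of these 10 was under 50% in MPP-like cells (3.36% of all genes), and 8 were in late erythroid-like cells (43.2%).

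Of 26 other stem cell regulators 23 had enough UMIs, and 0 passed the mark, against 3.55% of all genes (median log2 KO/WT -0.02). Hoxa5 and Hoxa7 stand on this list as well as on that of the Hox genes. The core hematopoietic factors differed little between the libraries: Lmo2 was at 408 CPM for WT and 415 CPM for KO, Runx1 at 75.4 and 74.2 CPM, Gata2 at 41.2 and 40.6 CPM, Tal1 at 29.5 and 30.2 CPM and Lyl1 at 83.4 and 91.7 CPM. Of the fetal program, Hmga2 was at 376 and 327 CPM (-0.20, -0.30 to -0.10), Mycn at 107 and 91.2 CPM (-0.23, -0.42 to -0.04), and Lin28b at 19.1 and 26.1 CPM (0.45, 0.04 to 0.85). Zfp36l2 was at 296 and 260 CPM (-0.19, -0.30 to -0.08). In MPP-like cells 3 of the 23 genes were under 50% (3.36% of all genes), Gfi1 (37.9 and 37.2 CPM to 8.57 and 7.46 CPM), Nkx2-3 (67.5 and 70.3 CPM to 16.5 and 14.7 CPM) and Hoxa5. In late erythroid-like cells 15 were (43.2% of all genes), but not Tal1, which was at 119 and 122 CPM, nor Gfi1b, which was at 78.7 and 75.7 CPM. Etv6, Bmi1, Ikzf2, Ndn, Cbfa2t3, Ldb1, Nfe2, Bcl11a and Sox4 were each within 0.25 of 0 in log2 KO/WT.

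Genes with the most similar pattern were found by Pearson's r of log2(CPM + 1) over 32 points among 10019 genes. The points were 16 named classes or unnamed clusters with at least 50 cells in each library, each in both libraries. Cluster 11, with 82.2% and 83.0% doublet calls, was among them, and megakaryocyte-like and hepatocyte-like cells were not. The points share their libraries and depths, so that r only describes. Hlf was most like Gm19590 (0.97), Pglyrp2 and Gcnt2, and Hoxa9 most like its neighbor Hoxa7 (0.97), Pglyrp2 and Epsti1. Mecom was most like Chd3 (0.95), Slit2 and Hoxa5, Hoxa10 most like Nkx2-3 (0.96), Ddx4 and Wfdc2, and Hoxb4 most like Laptm4b (0.98), the HSC marker Fgd5 and Armcx4. Meis1 was close to Angpt1 (0.97) and Dok2 (0.96), and Erg most like Rbpms (0.98), Map4k2 and Il16. Hhex was most like Igf2bp2 (0.98), Cbfb and Sptssa, and Msi2 most like Sugp2 (0.93), Zfp113 and Hnf4a. Mllt3 stood lowest, with 0.87 for Tspan8, Car2, the erythroid carbonic anhydrase, and Agpat4. Among the 10 genes themselves Hlf and Hoxa9 were closest (0.95), whereas Mllt3 reached no more than 0.15, with Mecom, and -0.52 with Hhex.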

How the data were processed

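Lineage-depleted, LSK-sorted cells of each genotype were sequenced as 1 droplet 3′ library. Per the authors' methods, reads were aligned to GRCm38 with Cell Ranger (version 6.0.0), and the deposited matrices hold raw UMI counts per gene and called cell. No further normalization had been applied.

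Cells under 1000 genes or over 20% mitochondrial UMIs were left out, which removed 382 WT and 511 KO barcodes, and genes in at least 3 cells were used. Scrublet (scanpy 1.11.5, expected rate 5%) doublet calls were kept. Libraries were merged in Seurat 5.3.0 (R 4.3.3; 2000 variable genes without 171 excluded genes, the members and lists among them; 20 principal components; resolution 1.0). A cluster was named from at least 3 markers of 1 list among its 50 leading genes. The naming rule and the erythroid order were settled after the clusters had been seen, and names can differ from those of the study. The members and lists were chosen with earlier results of these data known.

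UMIs were summed per class and library and given as CPM with exact Poisson intervals. Shares have Clopper-Pearson intervals, and KO/WT ratios exact conditional intervals for genes with at least 100 UMIs. Zero counts allow at most 3 UMIs or the printed Poisson bound. UMI counts are free of PCR copies, and all intervals cover counting error only. The interval of the KO/WT ratio was tested on simulated HSC-like sums drawn as Poisson counts. These hold no spread between cells or embryos, and the other intervals were not tested. Named are all 10 members, Nfkbia, the 3 genes most alike each member among those with at least 500 UMIs, and list genes with at least 10 CPM in HSC-like cells of both libraries or without a UMI. Some genes that this rule names are not reported here. Promoter windows came from RefSeq (GRCm38.p6; 10 of 10 members matched) and gene positions from GENCODE vM21. Alternatives are listed in the closing section; HSC-like cells joined with cluster 9 were added after seeing the data.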

Additional observations from a re-analysis of the deposited data

Results flagged for a closer look

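For Msi2, Mllt3 and Hhex the log2 KO/WT had counting intervals on opposite sides of 0 in different classes. For Msi2 it was 0.68 in cluster 12, the unnamed erythroid-side cluster, against -0.17 in HSC-like cells and -0.44 in monocyte/dendritic-like cells. For Mllt3 it was 0.28 in cluster 11 against -0.17 in late erythroid-like and -0.79 in monocyte/dendritic-like cells, and for Hhex 0.30 in cluster 11 against -0.40 in hepatocyte-like and -0.32 in neutrophil-like cells. Of the cells of cluster 11, 82.2% in WT and 83.0% in KO were doublet calls. These differences between classes were not tested, since each genotype had 1 library. The cluster 12 value rests on 74 WT and 81 KO UMIs, and Msi2 was seen in 35.6% and 41.0% of those cells, or in 4.05% and 5.76% after thinning to 5000 UMIs, with overlapping intervals.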

How the results depend on the processing

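No paired analysis was possible because there was a single library for each genotype. In HSC-like cells 0 of 10 genes passed 0.5 in log2 KO/WT under each of the 11 alternatives, and the median over the genes ran from -0.19 to -0.0017. The number of genes under 50% of the HSC-like level in MPP-like cells (4) was 7 with the stricter minimum of genes per cell, 7 without doublet calls and 2 at a mark of 25%. In lymphoid-primed-like cells (5) it was 9, 8 and 3. The single-cell marker gate gave 3 and 4 for these classes. The median number of genes per HSC-like cell was 2 in WT and 1 in KO at 2000 UMIs in place of 4 and 3. The cause of these moves was not tested, apart from the lower mark and depth, which act by construction. MPP-like, lymphoid-primed-like and monocyte/dendritic-like classes were not named at resolution 0.5 and have no value there. Depth limits Hoxb4 and Hoxa10 most, with 44 and 81 UMIs in KO HSC-like cells, and classes under 100 cells. Pool and genotype cannot be told apart.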
